A study of Mus musculus with 5 samples.

Results

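Respiratory complex I is the NADH:ubiquinone oxidoreductase of the inner mitochondrial membrane. It passes electrons from NADH to ubiquinone and pumps protons with the energy released. It is assembled from a few subunits that mitochondrial DNA encodes and many more that the nucleus encodes, so most of its mRNAs are translated on cytoplasmic ribosomes and their products imported. Together the subunits form a peripheral arm and a membrane arm that holds the proton pumps. The peripheral arm has an N module that oxidises NADH and a Q module that reduces ubiquinone. Assembly factors, several of them named Ndufaf, build the enzyme and are not part of the finished complex.

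The genes followed here are the nuclear genes whose symbol is Nduf, then a, ab, b, c, s, v or af, then a number. The rule used names and no measured value. It found 46 gene IDs among 49875, which are 38 genes named as subunits and 8 Ndufaf assembly factors. All 46 reached a value of 1 in 2 or more of the 5 libraries and were among the 12769 genes tested. Their RefSeq loci (GRCm38.p6, the assembly called mm10) lie on 18 chromosomes.

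The tissue was neocortex (forebrain in another label) of wild-type mouse embryos at E13.5, dissociated to single cells and lysed with mild detergent, and the measurement was RNA immunoprecipitation followed by sequencing. One group was precipitated with an antibody against eIF4E, the protein that binds the 5′ cap of mRNAs (2 libraries). The others were Input, which is the cytoplasmic supernatant before precipitation (2 libraries), and a control precipitate with rabbit immunoglobulin G (IgG, 1 library). Replicates are labelled as biological, with no animals or pools named. The p-values rest on how far replicate eIF4E and Input libraries lay apart, moderated by the trend over all genes tested. Whether that is a spread between animals is unknown. Values are RSEM abundances per gene, which are TPM or FPKM and scale with transcript number per unit of length. Read depth is unknown from them. A fold change below is a ratio of abundance + 1, the group mean being taken on the log2 scale, and a gene is called higher or lower where limma's adjusted p is under 0.05.

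Library totals ran from 708778 to 848550 in eIF4E and Input, and came to 560076 in IgG. The IgG library listed 11825 genes above 0, against 17412 to 18745 in the others. All 10 cortical markers looked for (among them Emx1, Pax6 and Tbr1) were tested and above 0 in every library, with summed values of 1285 and 1328 in eIF4E, 956.8 and 952.1 in Input and 1255 in IgG. Markers of other cells were present at summed values, in eIF4E and in Input, of 4843 to 6446 and 17163 to 18695 for 9 erythroid genes, 111 to 117 and 299 to 307 for 8 endothelial genes, and 19.7 to 24.4 and 50.3 to 59.4 for 8 microglial genes. In IgG these lists summed to 2521, 13.2 and 22.0, with 2, 3 and 6 members listed at 0. Of the cortical markers 8 of 10 were higher in eIF4E than in Input and 2 lower (Emx1 and Nes). Of the erythroid genes 8 of 8 tested were lower, of the endothelial genes 4 of 7 and of the microglial genes 4 of 6, beside 30.6% lower and 43.3% higher among all genes tested. The cortical markers were also high in the control precipitate, with a median of log2 1.06 for IgG against Input (all genes tested −0.43). For eIF4E against IgG the cortical median was log2 −0.16 (all genes tested 0.55). The part of these cells in the complex I values was not tested. For the level of a marker in bulk RNA, fewer cells of a type and less RNA per cell cannot be told apart. A ratio of eIF4E to Input compares a precipitate with the supernatant before precipitation, and was not taken as a difference in cells.

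Complex I mRNAs were abundant in the cytoplasm. The median subunit stood at 141 and 158 in the Input libraries, which put it at percentiles 91.3 and 92.1 of the genes tested. Together the 46 genes made up 1.00% and 1.03% of the Input totals, 0.959% and 0.817% of the eIF4E totals and 0.321% of the IgG total. The Ndufaf mRNAs were less abundant, with medians of 19.7 and 20.5 in Input. In the Input libraries Ndufc2 measured 765.62 and 809.46, and the lowest subunit, Ndufa1, 4.95 and 3.84. Listed abundances per unit of length thus differed widely among mRNAs of proteins that sit in the same complex. The value of Ndufa1 is uncertain, since its locus overlaps a protein-coding gene and the libraries do not mark strand. Whether transcript length affected these values was not tested.

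Comparing eIF4E with Input asks which cytoplasmic mRNAs are over- or under-represented in the cap-binding precipitate. Most complex I subunit mRNAs were under-represented, whereas the assembly factors went both ways. Of the 38 subunits 24 were lower and 6 higher, and of the 8 Ndufaf genes 1 was lower and 4 higher. Over all 46 genes this made 25 lower, 10 higher and 11 not past the threshold. Among all genes tested 30.6% were lower and 43.3% higher. The median subunit lay at log2 −0.70 and the median Ndufaf gene at 0.07, beside 0.16 for all genes tested. A fall of at least 2-fold was found for 8 of the 46 genes and a rise of that size for 2, against 7.26% and 23.3% of all genes tested. Both eIF4E libraries lay below both Input libraries for 31 of the 46 genes and above them for 10, against 37.6% and 50.3% of all genes tested.

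The split depended on how libraries were scaled, and the number of calls also depended on the number of Input libraries. With median-of-ratios scaling 32 members were lower and 5 higher, with quantile normalization 25 and 9, and with the same total for each library 21 and 11. The same settings gave 5256 lower and 4417 higher, 5145 and 4297, and 2748 and 6503 among all genes tested, against 3906 and 5535 as reported. Without Input replicate 1 or Input replicate 2 fewer calls were made, both among members and among all genes tested. The subunit median was then log2 −0.75 and −0.62 in turn, and that of all genes tested 0.16 and 0.15. Of the 35 calls, 19 held in every one of the 14 alternatives in which the gene was tested (13 for Ndufaf5, which drops out among genes above 0 in all 5 libraries). These were 14 falls (among them Ndufv1, Ndufs8, Ndufa8, Ndufa9, Ndufa12, Ndufa13, Ndufab1, Ndufb2, Ndufb7, Ndufb9, Ndufb10, Ndufb11 and Ndufc2) and 5 rises (Ndufs1, Ndufs4, Ndufaf4, Ndufaf5 and Ndufaf7).

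The N module holds the site where NADH gives up its electrons. Its 3 core subunits behaved differently from one another. Ndufs1, the largest subunit and a carrier of iron-sulfur clusters (chromosome 1, 63143592 to 63176822), measured 80.68 and 85.30 in eIF4E, 26.37 and 24.84 in Input and 63.18 in IgG. The eIF4E and Input libraries did not overlap, and the rise over Input was 3.16-fold (log2 1.66, SE 0.06, adjusted p = 8.5e-05). The IgG value was also well above both Input values. Ndufv1, which binds NADH and the flavin (chromosome 19, 4007499 to 4012755), went the other way, with 192.72 and 205.87 in eIF4E, 351.52 and 350.42 in Input and 168.31 in IgG. It fell to 0.569 of Input (log2 −0.81, SE 0.05, adjusted p = 2.1e-04). Ndufv2, its iron-sulfur partner, measured 110.71 and 95.21 in eIF4E, 117.07 and 123.48 in Input and 13.81 in IgG, and did not pass the test against Input (log2 −0.23, adjusted p = 0.072).

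Accessory subunits of the N module were likewise divided. Ndufs4, whose loss impairs complex I assembly (chromosome 13, 114287795 to 114388094), measured 258.36 and 239.91 in eIF4E, 122.14 and 133.16 in Input and 46.68 in IgG. That was 1.94-fold above Input (log2 0.96, SE 0.07, adjusted p = 3.2e-04), with no overlap between the groups. Ndufa12, at the junction of the N and Q modules (chromosome 10, 94199035 to 94221440), fell to 0.382 of Input (log2 −1.39, SE 0.08, adjusted p = 1.7e-04), from 329.10 and 363.95 to 138.07 and 125.46, with 46.05 in IgG. A locus named Ndufa12-ps was listed nearly as high, at 198.38 and 226.25 in Input and 79.43 and 80.53 in eIF4E, and its ratio was 0.38 as well. RSEM shares reads among near-identical copies, so how much of either value belongs to Ndufa12 is uncertain. Ndufs6 was 1.62-fold higher and Ndufa2 lower at 0.611, with adjusted p-values of 0.044 and 0.047, lost in 5 and 6 of the 14 alternatives in turn, among them leaving out either Input replicate. Ndufv3 stood at 0.775 and did not pass (adjusted p = 0.093).

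The Q module core subunits described here, Ndufs3, Ndufs7 and Ndufs8, were lower in eIF4E. Ndufs7, which helps to form the ubiquinone site, measured 121.80 and 94.75 in eIF4E, 157.92 and 180.95 in Input and 27.22 in IgG. It fell to 0.638 (log2 −0.65, SE 0.14, adjusted p = 0.012), a call that was not past the threshold without Input replicate 2. Ndufs8, an iron-sulfur protein, measured 109.59 and 107.06 in eIF4E against 193.50 and 212.14 in Input, with 45.48 in IgG, and fell to 0.537 (log2 −0.90, adjusted p = 2.9e-04). Ndufs3 moved least, with 395.14 and 398.88 in eIF4E, 468.18 and 459.38 in Input and 107.91 in IgG. Its ratio of 0.856 (log2 −0.22, SE 0.04, adjusted p = 0.0054) turned to log2 0.066 under quantile normalization and to 0.017 with the same total for each library, and the call was lost without Input replicate 1. For these 3 genes the eIF4E libraries lay below both Input libraries and above IgG.

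Among the accessory Q subunits, Ndufa7 fell to 0.388 of Input (log2 −1.37, SE 0.30, adjusted p = 0.013), at 84.72 and 45.15 in eIF4E, 153.23 and 169.65 in Input and 16.89 in IgG. The groups did not overlap, although the eIF4E libraries differed from each other by nearly 2-fold, and the call was lost without either Input replicate. Ndufa9 fell to 0.586 and Ndufa6 to 0.772, the latter with an adjusted p of 0.031 that was lost in 8 of 14 alternatives, among them leaving out eIF4E replicate 2 or either Input replicate. Ndufa5 overlapped between the groups, at 78.05 and 54.15 in eIF4E and 41.45 and 56.78 in Input.

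In the proximal part of the membrane arm 5 of 9 genes were lower and 2 higher. The largest fall was in Ndufa10, a subunit related to nucleoside kinases (chromosome 1, 92439486 to 92473825), at 16.14 and 4.99 in eIF4E, 32.67 and 30.16 in Input and 47.14 in IgG. Here the IgG library was the highest and both eIF4E libraries the lowest. The fall to 0.313 of Input (log2 −1.68, SE 0.51, adjusted p = 0.034) was not past the threshold without either Input replicate. Ndufs5, on the intermembrane side of the arm (chromosome 4, 123712710 to 123718186), rose 1.75-fold (log2 0.80, SE 0.21, adjusted p = 0.021), from 50.48 and 55.04 to 114.46 and 75.22, with 5.58 in IgG. Ndufc1, among the smallest subunits (chromosome 3, 51405479 to 51408955), had the highest value of any member in each eIF4E library, 735.14 and 537.97, against 445.95 and 434.42 in Input and 14.19 in IgG. Its rise of 1.43-fold (adjusted p = 0.034), like that of Ndufs5, was not past the threshold with median-of-ratios scaling or without either Input replicate. Ndufc2, its partner in the arm, fell to 0.568, and Ndufa13, Ndufa11 and Ndufa8 fell to 0.471, 0.544 and 0.594 (Ndufa11 not past the threshold without either Input replicate). Ndufa3 (0.607, adjusted p = 0.063) and Ndufa1 (11.35 and 4.63 in eIF4E, 4.95 and 3.84 in Input) did not pass.

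The distal membrane arm had 8 of 11 genes lower and 1 higher. Ndufb4 (chromosome 16, 37647602 to 37654368) had the largest fall of all 46 genes. It measured 26.47 and 10.11 in eIF4E, 51.26 and 66.15 in Input and 0.85 in IgG, a ratio of 0.295 (log2 −1.76, SE 0.45, adjusted p = 0.021) that was not past the threshold without either Input replicate. Ndufb2 (chromosome 6, 39592565 to 39599843) measured 15.13 and 12.44 in eIF4E, 33.48 and 49.24 in Input and 25.28 in IgG, so both eIF4E libraries were below every other library. It fell to 0.354 of Input (log2 −1.5, SE 0.21, adjusted p = 0.0026). Ndufb11, encoded on the X chromosome (20615326 to 20617619), fell to 0.428 (log2 −1.23, SE 0.11, adjusted p = 6.9e-04), at 141.80 and 115.37 in eIF4E against 288.38 and 312.90 in Input, with 56.98 in IgG. Ndufb10 fell to 0.540, at 115.95 and 97.42 in eIF4E, 193.54 and 201.88 in Input and only 3.13 in IgG. Ndufb6, Ndufb7, Ndufb9 and Ndufb5 fell to between 0.536 and 0.772, of which the Ndufb6 call was lost without either Input replicate and that of Ndufb5 with quantile normalization or the same total. Ndufb3 was 1.33-fold higher (adjusted p = 0.022), a call lost with median-of-ratios scaling, without eIF4E replicate 1 and without either Input replicate. Ndufb8 and Ndufb1 overlapped between the groups.

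A pair of members with roles beyond complex I completed the subunits. Ndufab1, the mitochondrial acyl carrier protein, which also serves fatty acid synthesis, fell to 0.431 of Input (195.85 and 149.68 against 400.68 and 396.55, adjusted p = 0.0012). Ndufa4, first described as a complex I subunit and later assigned to complex IV, overlapped between the groups (420.95 and 284.78 against 280.72 and 308.92).

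The assembly factors included the largest rise. Ndufaf4, which works with Ndufaf3 on the Q module (chromosome 4, 24898083 to 24905001), measured 29.97 and 31.06 in eIF4E, 8.12 and 5.93 in Input and 6.19 in IgG. It was 3.96-fold above Input (log2 1.99, SE 0.15, adjusted p = 3.7e-04) and its IgG value lay between the Input values. Ndufaf3 itself did not pass, at 15.89 and 14.38 in eIF4E, 17.01 and 18.66 in Input and 19.57 in IgG. Ndufaf7, a methyltransferase of the mitochondrial matrix (chromosome 17, 78937106 to 78948052), measured 21.98 and 23.67 in eIF4E, 11.85 and 11.05 in Input and 21.11 in IgG, a rise of 1.91-fold (log2 0.94, adjusted p = 5.2e-04). Ndufaf5, which hydroxylates Ndufs7 (chromosome 2, 140170584 to 140218965), rose 1.62-fold, from 50.85 and 50.81 to 85 and 81.35, and was listed at 0 in IgG. Its partner Ndufaf8 fell to 0.561 (adjusted p = 0.023), a call lost without either Input replicate. Ndufaf1, part of the complex that assembles the membrane arm, was 1.24-fold higher (37.01 and 36.97 against 29.62 and 29.66), but stood at log2 −0.0051 with median-of-ratios scaling and lost the call without either Input replicate. Ndufaf2 (0.569) and Ndufaf6 (0.885) did not pass, although Ndufaf2 passed without eIF4E replicate 1.

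Promoter motifs were chosen after the values were seen, and 2 of them occurred both in members that rose and in members that fell. RefSeq promoter sequences (GRCm38.p6) matched 41 of the 46 genes, and the 250 bases before each start were searched on both strands. GCGCA, any base, then GCGC, the core of the site of NRF1, a transcription factor known for respiratory chain genes, was found in 7 of 41 (17.1%), beside 4.23% of 27025 genes. Its holders did not go one way with eIF4E: Ndufaf4, Ndufs5 and Ndufs6 were higher than Input, Ndufb4, Ndufa8 and Ndufa11 lower, and Ndufa5 did not pass. CCGGAAG, an ETS-type motif, was found in 5 of 41 (12.2%, beside 7.83%), of which Ndufaf1 was higher and the other 4 lower. TGACGTCA, the cyclic AMP response element, was found in 3 (7.32%, beside 1.77%), namely Ndufa10, Ndufa11 and Ndufb2, all lower. AAGATGGCG, a YY1-type motif, was found in none of the 41 and in 0.71% of genes. A match is a description of the window only, and the factors themselves were not measured. The 27025 genes were not matched to the members for expression or base composition. The 3 windows below, of 100 bases on the strand of the gene, show the motif in capitals in the genes named. They are Ndufaf4 at chr4:24897925-24898024 (plus strand), Ndufb4 at chr16:37654369-37654468 (minus strand) and Ndufs5 at chr4:123718230-123718329 (minus strand). Ndufb4 holds 3 copies in its 250 bases, of which 2 are shown.
Ndufaf4: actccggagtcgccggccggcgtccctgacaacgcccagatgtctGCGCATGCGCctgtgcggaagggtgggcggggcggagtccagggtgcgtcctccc
Ndufb4: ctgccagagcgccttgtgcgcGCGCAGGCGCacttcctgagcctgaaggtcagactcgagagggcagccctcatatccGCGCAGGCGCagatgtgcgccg
Ndufs5: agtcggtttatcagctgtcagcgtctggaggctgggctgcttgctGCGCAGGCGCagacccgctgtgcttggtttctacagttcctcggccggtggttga

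The replicate eIF4E libraries differed mostly in 1 direction in the accessory subunits. Of the 30 accessory subunits (Ndufa4 left out), 29 had a lower value in eIF4E replicate 2 than in replicate 1, with a median difference of log2 −0.42. The core subunits had 3 of 7 lower and a median of log2 0.01, and all genes tested had 46.2% lower and a median of 0.01. Differences within the accessory group reached over 2-fold in Ndufb4 (26.47 and 10.11), Ndufa10 (16.14 and 4.99) and Ndufa1 (11.35 and 4.63). Other lists leaned the same way in the eIF4E pair, with 19 of 21 complex IV genes tested, 12 of 17 of complex V, 10 of 15 of complex III and 8 of 8 erythroid markers lower in replicate 2. In the Input pair 10 of 30 accessory subunits were lower in replicate 2, with a median of log2 0.08, beside 51.3% of all genes tested. The subunit median against Input was log2 −0.75 without eIF4E replicate 1 and −0.51 without eIF4E replicate 2, so it was below 0 with either library.

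**Figure D1:**
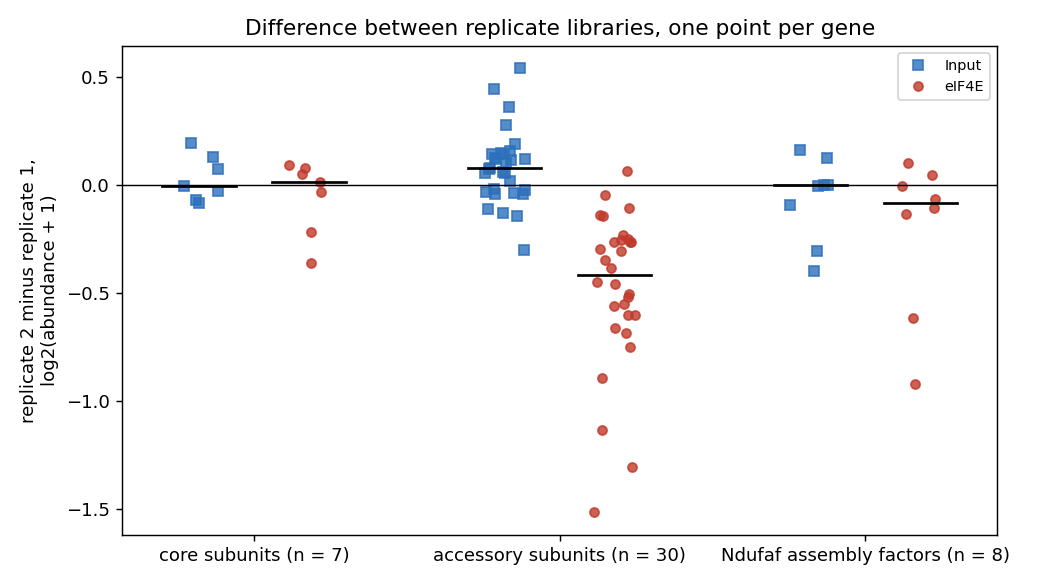
Difference between replicate 2 and replicate 1 in log2(abundance + 1), 1 point per gene, for Input (squares) and eIF4E (circles), with the median of each set as a black line. In eIF4E, 29 of 30 accessory subunits lie below 0, and the 7 core subunits lie around 0.

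Against the control precipitate the subunits stood high. Of the 46 genes 39 were higher in eIF4E than in IgG and 3 lower, and of the 38 subunits 35 and 2, whereas 53.1% and 30.6% of all genes tested were higher and lower. The median subunit lay at log2 2.02 and the median of all genes tested at 0.55. With 1 IgG library there is no replicate check, its spread being taken from the other groups, and comparisons with it share libraries with the comparison above. Values are relative within each library and were not rescaled to a common total, so they do not say how much RNA each precipitate held. Of these 42 calls, 36 held in every one of the 12 alternatives in which the gene was tested (11 for Ndufa1 and Ndufaf5, listed at 0 in IgG), all of them rises.

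Ndufc1 had the largest rise over IgG among members above 0 there, 41.5-fold (log2 5.37, SE 0.19, adjusted p = 3.2e-05), from 14.19 to 735.14 and 537.97. Ndufaf1, at 0.08 in IgG, was 35.2-fold higher on the scale of value + 1, and Ndufb10 was 26.0-fold higher. Ndufs6, Ndufb3 and Ndufs5 followed at 16.2-fold, 16.0-fold and 14.3-fold. All 7 core subunits were higher, from 1.18-fold for Ndufv1 and 1.31-fold for Ndufs1 to 7.0-fold for Ndufv2. Ndufv1 and Ndufs1, at log2 0.24 and 0.39, nevertheless lay below the median of all genes tested (log2 0.55). The call of Ndufv1 was not stable, since quantile normalization turned it to log2 −0.32 (adjusted p = 0.013) and it was lost without either Input replicate, and that of Ndufs1 was lost with quantile normalization and with the same total.

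The genes lower in eIF4E than in IgG were Ndufa10 (log2 −2.25, SE 0.62, adjusted p = 0.022), Ndufb2 (log2 −0.84, adjusted p = 0.031) and Ndufaf3 (log2 −0.35, adjusted p = 0.032). None of these 3 calls held in all alternatives: Ndufa10 was lost without either Input replicate, Ndufb2 without either eIF4E replicate, and Ndufaf3 without eIF4E replicate 2 or either Input replicate. Ndufb1 (61.91 and 41.92 in eIF4E, 77.20 in IgG), Ndufaf2, Ndufaf7 and Ndufaf8 did not pass.

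The IgG library held little complex I mRNA compared with Input. Of the 46 genes 39 were lower in IgG than in Input and 3 higher, beside 50.3% and 37.8% of all genes tested, with a subunit median of log2 −2.52 (all genes −0.43). Those higher were Ndufs1 (2.41-fold), Ndufaf7 (1.78-fold) and Ndufb1 (1.82-fold, lost without either Input replicate). Among those lower, the calls of Ndufaf2 and Ndufaf8 were lost without either Input replicate and that of Ndufa1 without Input replicate 1. Ndufa1 and Ndufaf5 were listed at 0 in IgG, as were 20.8% of all genes tested. IgG was below every other library for 38 of the 46 genes (50.9% of all genes tested) and above every other for 3 (32.7%). Set in order, 27 of 46 genes had IgG lowest, then both eIF4E libraries, then both Input libraries, against 25.4% of all genes tested. A further 10 had both eIF4E libraries above every other library (26.7% of all genes), and 3 had both below every other library (10.6%), namely Ndufa10, Ndufb2 and Ndufaf3.

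The 7 mitochondrially encoded subunits complete the enzyme, and their mRNAs are made and translated inside the organelle. Of these, 6 were tested, and all 6 were lower in eIF4E than in Input and than in IgG, with medians of log2 −4.37 and −6.04 that take in mt-Nd3, listed at 0 in both eIF4E libraries. The mRNA of mt-Nd1 measured 9.55 and 6.22 in eIF4E, 930.70 and 907.77 in Input and 2186.31 in IgG. The smallest fall against Input was that of mt-Nd5, which measured 4.81 and 3.51 in eIF4E, 27.87 and 23.18 in Input and 261.32 in IgG. In the IgG library 5 of these 6 mRNAs were higher than in Input, whereas 34 of the 38 nuclear subunit mRNAs were lower. The other list of complex I assembly factors held 13 genes outside the Ndufaf series. In eIF4E 6 of them were higher and 4 lower than in Input, with a median of log2 0.14. Among all genes tested 43.3% were higher and 30.6% lower, with a median of log2 0.16, so this list as a whole lay close to all genes. Tmem126b, a membrane arm assembly factor, was 3.79-fold higher and Lyrm2 2.46-fold, and Dmac1 (0.479) and Timmdc1 (0.613) were lower. However, Tmem126b measured 30.45 and 32.49 in eIF4E and 54.19 in IgG, so the control precipitate had the higher value. The IgG values of Lyrm2, Dmac1 and Timmdc1 (22.4, 10.43 and 31.01) lay below both of their eIF4E values.

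The other respiratory complexes gave counts on the same scale. The lists of complexes II to V take in assembly factors as well as subunits. Against Input, complex II had 4 of 8 genes lower and 4 higher, and complex III 7 of 15 and 2. Complex IV had 9 of 21 lower and 6 higher, and complex V 10 of 17 and 2. Among all genes tested 30.6% were lower and 43.3% higher. Medians of these lists relative to all genes tested were log2 −0.05, −0.43, −0.43 and −0.77. The value was −0.86 for complex I subunits, a list without assembly factors, and the effect of that difference between lists was not tested. These values depended on scaling: under quantile normalization, an alternative added for these lists after the data were seen, they were 0.31, −0.25, 0.080 and −0.44 for complexes II to V in turn, and −0.30 for complex I subunits. Against IgG the higher counts were 6 of 8, 13 of 15, 17 of 21 and 13 of 17, beside 53.1% of all genes tested. Medians stayed below that of all genes under the 3 scalings tried for complexes III and V, as for complex I subunits, and no test of a difference between complexes was made.

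**Figure D2:**
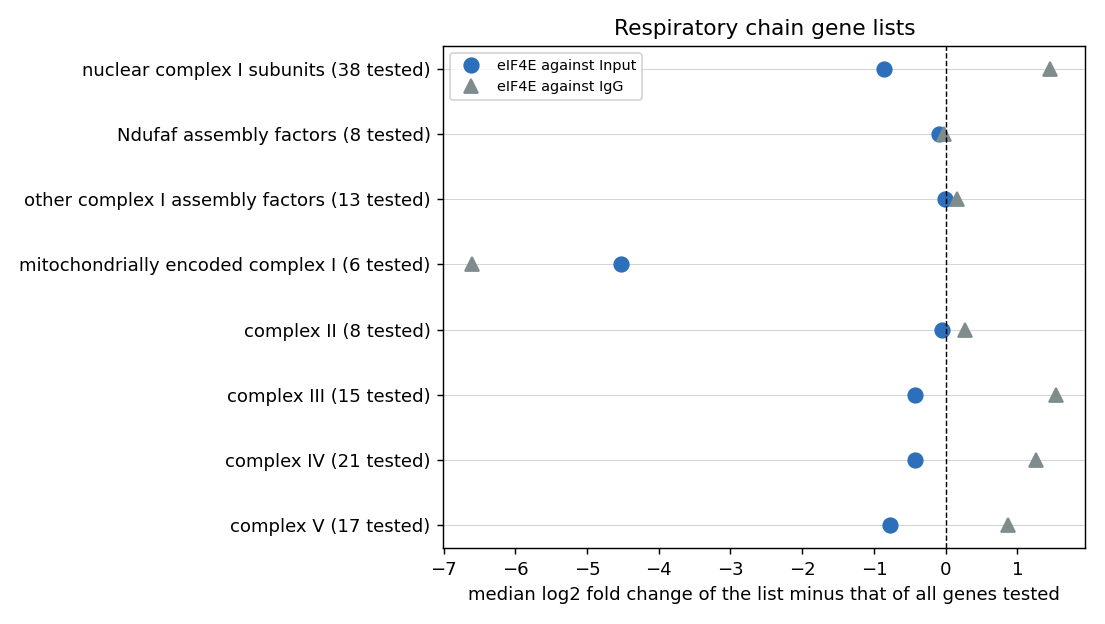
Median log2 fold change of each list of respiratory chain genes minus the median of all genes tested, for eIF4E against Input (circles) and against IgG (triangles). The lists of complexes II to V include assembly factors, and that of nuclear complex I subunits does not. The nuclear complex I subunits lie at −0.86 (−0.30 with quantile normalization, not drawn) and 1.46, the mitochondrially encoded ones at −4.53 and −6.60.

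The length of each locus was also set against the fold change. The loci spanned from 1.49 kb (Ndufaf8) to 106 kb (Ndufaf2), and across the 46 genes span and the log2 fold change of eIF4E against Input had Pearson's r = 0.13 on log2 span and Spearman's rho = 0.09. Among the 38 subunits r was 0.15 for that comparison, −0.29 for eIF4E against IgG and 0.37 for IgG against Input, with rho of 0.03, −0.16 and 0.18. The genes share libraries, so this is a description. The libraries do not mark strand, and 13 of the 46 loci overlap another RefSeq gene, 6 of them a protein-coding one (among them Ndufa1, Ndufa2, Ndufa13, Ndufb11 and Ndufv2). The others overlap genes that are not protein-coding, among them Ndufs1, Ndufaf4, Ndufaf5 and Ndufa10. Reads in such overlaps cannot be assigned by strand, and all 13 values carry that uncertainty.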

How the data were processed

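Libraries were made from immunoprecipitated or Input RNA by Smart-seq2, per the labels' protocols, which amplifies poly(A) RNA without strand or molecule marks. The deposited table gives the authors' RSEM abundances, not counts, with 2 decimals. Per the submitters' processing notes, the tools were RSEM 1.3.3 and STAR 2.7.9a and the build mm10. No source used here states TPM or FPKM, the annotation or a filter. Of 50161 rows, 286 repeated a gene ID and were dropped (48 member rows became 46 genes).

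Genes that reached 1 in 2 or more of the 5 libraries were tested as log2(value + 1), with limma 3.58.1 in R 4.3.3. The deposited values were used without further scaling between libraries. One fit took in all 5 libraries in 3 groups (eBayes with trend, two-sided, Benjamini-Hochberg over 12769 genes, threshold 0.05). It had 2 residual and, at the median, 2.57 prior degrees of freedom. The fit was tested on simulated data. Full values are given for core subunits, for members past the threshold among the 6 highest and 6 lowest changes against Input and the 4 highest and 4 lowest against IgG, and for some further members chosen after their values were seen. Promoter motifs were also chosen then. Members and lists were chosen with earlier results of these data known. One member is counted but not reported by name here. Protein length was planned as a feature and not used here. Locus positions came from RefSeq by symbol (46 of 46). Alternatives covered scaling, pseudocount, filter, left-out replicates, the eBayes trend and the replicate block.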

Additional observations from a re-analysis of the deposited data

How the results depend on the processing

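Depth is unknown, so precision rests on 2 libraries a group and a single IgG library. Against Input, 35 members were called; the count was 22 without a filter and 21 to 39 over the left-out replicates. Higher calls went from 10 to 5 (median-of-ratios scaling), 6 (no filter) and 5 to 13 (left-out replicates), and lower calls from 25 to 16 (no filter) and 16 to 30. Against IgG the 3 lower calls became 0 without a filter, and 1 to 3 over the left-out replicates. Fewer replicates and more genes tested are part of those settings; the cause of the other changes was not tested.

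The median of all genes tested moved with scaling, from log2 0.16 to −0.11 (median-of-ratios, and quantile) and 0.36 (same total) against Input. The subunit median against Input, −0.70, was −1.02, −0.41 and −0.47 under these 3 in turn, and −0.75 to −0.51 over left-out replicates. Against IgG, 2.02 became 1.68 (same total), 1.82 (pseudocount 5) and 1.85 to 2.29. For IgG against Input, −2.52 became −2.79 (median-of-ratios), −2.05 (same total), −2.66 (pseudocount 0.1) and −2.27 (pseudocount 5). The Ndufaf median against Input, 0.07, turned to −0.25 (median-of-ratios), −0.13 (quantile) and −0.18 (genes above 0 in all 5 libraries), and was 0.30 with the same total. Against IgG, 0.54 became 0.49, 0.41 and 0.26 under the 3 scalings, 0.64 and 0.35 with pseudocounts of 0.1 and 5, 0.51 among genes above 0 in all libraries and 0.31 to 0.79 over left-out replicates. For IgG against Input, −0.85 became −1.12, −1.03 and −0.29 under the scalings, −0.65 with a pseudocount of 5 and −0.68 among genes above 0 in all libraries.

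Of 11 members not called against Input, 11 were called under at least 1 alternative. Some single genes turned direction. Against Input, with the same total, Ndufs3 stood at 0.017, Ndufv2 at 0.013, Ndufb8 at 0.023, Ndufaf6 at 0.053 and Ndufaf3 at 0.0038. Ndufs3 was 0.066 with quantile normalization. With median-of-ratios scaling Ndufaf1 was −0.0051, Ndufa4 −0.091 and Ndufb1 −0.046. Over left-out replicates Ndufb8 ranged from −0.47 to 0.037, Ndufa4 from −0.048 to 0.51 and Ndufb1 from −0.0034 to 0.55. Against IgG, Ndufv1 was −0.32 (quantile) and −0.11 (same total), Ndufaf7 −0.23 (same total), Ndufaf2 −0.52 (quantile) and Ndufaf8 −0.14 (same total) and −0.12 to 0.50 over left-out replicates. For IgG against Input, Ndufaf4 was 0.37 (same total) and −0.34 to 0.053 over left-out replicates, and Ndufaf3 −0.14 (median-of-ratios) and −0.24 (quantile).

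For the respiratory lists, scaling alternatives were added after the data were seen. Relative to all genes tested, the median against Input turned to 0.31 (complex II) and 0.080 (complex IV) with quantile normalization and to 0.0078 (other complex I assembly factors) with the same total, and that of Ndufaf against IgG turned to 0.45 (quantile).

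Replicate numbers are shared by eIF4E and Input, but the labels do not say that they mark a common lysate, and deviations of same-numbered libraries had r = 0.024 across genes. With the number as a replicate block (eIF4E and Input libraries only) 10 members were higher and 25 lower; 34 of the 35 calls were kept, that of Ndufa6 was lost and Ndufaf2 was called lower (log2 −0.81, limma's adjusted p = 0.022).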
